A study of Rattus norvegicus with 4 samples.

Results

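The 8 genes described here encode the main hormone products of the β-cell and the proteins that fold, cut and store them. They are Ins1 and Ins2 (the insulin genes of the rat), Iapp (amylin, which is secreted together with insulin), Pcsk1 and Pcsk2 (prohormone convertases), Cpe (carboxypeptidase E), Slc30a8 (the zinc transporter of the insulin granule) and Ero1b (an oxidase used in insulin folding). They were chosen by gene name, and all 8 are among the 15172 genes listed in the deposited table and among the 13953 genes tested. The cells were INS-1 832/13, a clonal rat insulinoma line that secretes insulin in response to glucose and also carries a human insulin transgene. Whether reads of that transgene were assigned to Ins1 or Ins2 is not given in the sources used here. Control cells (siScramble) received a non-targeting siRNA and siTbk1-treated cells received a pool of siRNAs against Tbk1, the gene of TANK-binding kinase, for 36 h. Polyadenylated RNA of 2 samples per treatment, with the replicate numbers 2 and 3 in each, was sequenced from stranded libraries. Total counts were between 38428926 and 47759013 per library. The labels do not say whether the samples came from separate cultures, so the spread between them may be technical. The p-values rest on that spread as estimated jointly over all genes.

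Insulin is made as preproinsulin, which enters the endoplasmic reticulum (ER), loses its signal peptide and forms its disulfide bonds there. In the secretory granule, the convertases encoded by Pcsk1 and Pcsk2 cut proinsulin at pairs of basic residues, and carboxypeptidase E trims the basic residues left at the cut ends. Zinc brought in by the transporter encoded by Slc30a8 lets insulin crystallize. Pro-amylin is cut by the same convertases and is stored in the same granules. Rats have a pair of insulin genes, of which Ins1 is thought to be a retrotransposed copy of Ins2, and transcription of both depends on factors such as Pdx1, Neurod1 and Mafa that bind close to the start site.

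The sequences upstream of Ins1, Ins2 and Iapp are shown because the counts of both insulin genes were lower after siTbk1 and the difference in Iapp had the other sign. RefSeq promoter sequences (build GRCr8) were found for 6 of the 8 genes, and the 250 bases before the start site are printed 5′ to 3′ on the strand of the gene. They lie at chr1:261185869-261186118 (+ strand), chr1:207273806-207274055 (- strand) and chr4:176967847-176968096 (+ strand). Capitals mark, on both strands, CATCTG (an E box, the kind of site that Neurod1 binds), TAAT (the core bound by homeodomain factors such as Pdx1) and TCAGC (letters found within Maf recognition elements). Neighbouring matches can overlap, as TAAT on the opposite strands does in TAATTA, and as CATCTG and TCAGC do in Ins2.
Ins1: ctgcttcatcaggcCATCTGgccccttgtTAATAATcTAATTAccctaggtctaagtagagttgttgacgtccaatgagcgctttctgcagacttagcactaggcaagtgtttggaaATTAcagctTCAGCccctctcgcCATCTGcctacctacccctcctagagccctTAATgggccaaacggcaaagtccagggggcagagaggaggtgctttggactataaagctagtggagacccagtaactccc
Ins2: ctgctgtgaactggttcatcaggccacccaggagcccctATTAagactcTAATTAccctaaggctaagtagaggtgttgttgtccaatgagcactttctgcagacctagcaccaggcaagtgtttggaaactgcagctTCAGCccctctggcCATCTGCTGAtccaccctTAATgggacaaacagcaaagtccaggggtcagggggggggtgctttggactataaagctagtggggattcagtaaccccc
Iapp: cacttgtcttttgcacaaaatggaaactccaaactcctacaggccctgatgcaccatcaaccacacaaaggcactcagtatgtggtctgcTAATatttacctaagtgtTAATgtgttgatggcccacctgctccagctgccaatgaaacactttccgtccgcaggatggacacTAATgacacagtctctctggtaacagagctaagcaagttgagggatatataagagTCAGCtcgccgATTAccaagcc
The Ins1 and Ins2 windows were identical at 208 bases, or 79.4% of 262 aligned columns, against 51.1% for Ins1 and Iapp. All pairs of windows other than Ins1 and Ins2 lay between 44.1% (Iapp and Pcsk2) and 51.8% (Cpe and Ero1b). CATCTG was found at 2 places in Ins1, at 1 in Ins2 and at 0 in Iapp, and 14.0% of 33469 windows in the RefSeq table hold it. Other forms of E box were not searched. The windows hold such letters, for example CACCTG and CAGCTG in Iapp and CAAGTG in Ins1 and Ins2. TAAT was found at 6 places in Ins1 and at 4 in each of Ins2 and Iapp, and 57.0% of windows hold it at least once. At least 6 matches occur in 3.34% of windows and at least 4 in 10.8%. TCAGC was found at 1 place in Ins1, 2 in Ins2 and 1 in Iapp, and 45.2% of windows hold it. The promoters of Pcsk2, Cpe and Ero1b held none of these 3 motifs in the same window. The Ero1b window lies on the + strand in GRCr8, while the gene is listed on the - strand in rn6. Whether both describe the same start site was not checked. Of the other motifs searched, TATAAA was found in Ins1 and Ins2, in each at 30 bases before the start, and in 12.9% of all windows. TGACG, letters found within cAMP response elements, was found in Ins1, Pcsk2 and Cpe and in 18.2% of windows. These are matches of letters and not measured binding sites, and their part in the differences between treatments was not tested.

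The siRNA lowered its target. The normalized count of Tbk1, that is the count scaled to the mean library size with TMM factors, was 2315 and 2261 in control and 510 and 575 in siTbk1-treated cells (log2 fold change −2.08, standard error (SE) 0.076). The β-cell label was also checked. Besides the hormone genes, the β-cell transcription factor genes Pdx1, Nkx6-1, Neurod1 and Mafa averaged 71.9, 28.3, 119 and 5.03 CPM. CPM are counts relative to the TMM-scaled library total. Of 20 markers of other islet or pancreas cell types and of connective tissue, vessels and immune cells, 5 are listed. That a gene is not listed does not show that it is absent from these cells. Insm1, chosen as a transcription factor gene of the insulin promoters or β-cell identity, is not listed either. Of the listed markers, Hhex, Sox9 and Cd68 averaged at most 0.331 CPM. Gcg encodes glucagon, the hormone of α-cells, and is among the abundant mRNAs of this line at a mean of 1099 CPM.

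Silencing of Tbk1 was followed by differences in opposite directions within the group. Ins1 and Ins2 fell by about the same proportion, Ero1b rose, and Iapp and Pcsk1 were higher by less than 1.5-fold. Pcsk2 and Slc30a8 differed slightly, and for Cpe the groups overlapped. Calls required an adjusted p-value under 0.05 (edgeR's quasi-likelihood test, Benjamini-Hochberg adjustment over all tested genes) together with a change of 1.5-fold or more. By this rule 2 of the 8 genes were lower, against 6.18% of all tested genes, and 1 was higher, against 4.81%. The 2 lower genes were Ins1 and Ins2. How reads matching both were assigned is not known, so they may not count as separate results. Without the fold change limit, 3 were lower (24.8% of all genes) and 4 were higher (24.4% of all genes), together 7 of 8 against 49.2%. The siTbk1 and control libraries did not overlap for 7 of the 8 genes, and 76.6% of all tested genes show this, so that it says little about any single gene. The median log2 fold change of the 8 genes was 0.11, and that of all tested genes was 0.0071.

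**Figure D1:**
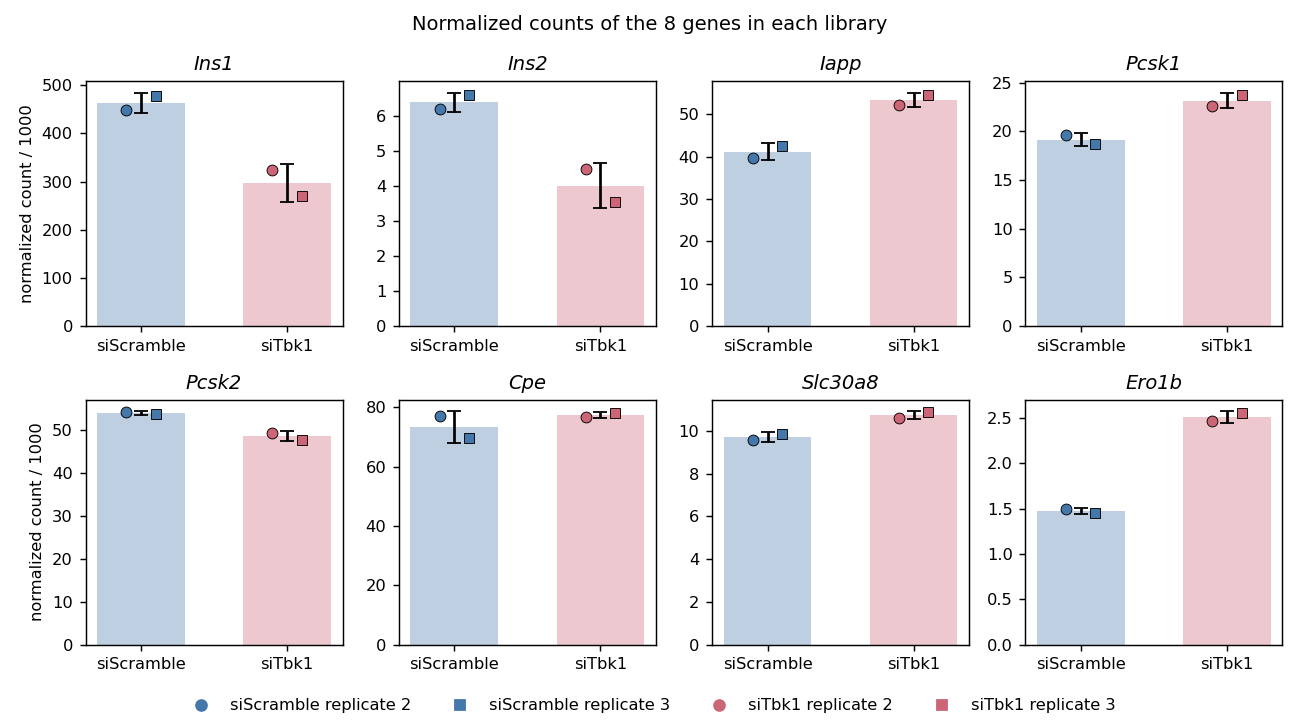
Normalized counts on linear axes from 0 of the 8 genes, with bars for the mean and whiskers for the SD of 2 samples per treatment, circles for replicate 2 and squares for replicate 3. Ins1 and Ins2 lie lower in both siTbk1 libraries, lowest in replicate 3, Ero1b and Iapp lie higher, and the Cpe values overlap.

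Ins1, listed on chromosome 1 from 272799784 to 272800348 on the + strand (positions of rn6), supplied 1.05% and 1.13% of all counts in the control libraries. Its normalized count was 447584 and 478104 under siScramble and 324167 and 269158 under siTbk1. Each siTbk1 library was lower than each control library, and the lowest value was that of siTbk1 replicate 3. The means were 462844 ± 21581 and 296662 ± 38897 (SD, n = 2 each). The log2 fold change was −0.64 (SE 0.079, 95% interval −0.81 to −0.47, quasi-likelihood adjusted p = 5.74e-05), a decrease of mRNA to 0.641 of the control level. The share of all counts was 0.741% and 0.613% after siTbk1. By replicate number, the log2 ratio of siTbk1 to control was −0.47 in replicate 2 and −0.83 in replicate 3. These are the highest and lowest of all ratios between a siTbk1 and a control library, and the numbers were not taken to pair the samples.

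Ins2, the insulin gene whose structure is shared with other mammals, is listed on chromosome 1 from 215856971 to 215858035 on the - strand. It had normalized counts of 6199 and 6584 under siScramble and of 4474 and 3551 under siTbk1. As for Ins1, siTbk1 replicate 3 held the lowest value, and the groups did not overlap. The log2 fold change was −0.67 (SE 0.087, 95% interval −0.86 to −0.48, quasi-likelihood adjusted p = 7.78e-05). The log2 ratios of the same-numbered samples were −0.47 and −0.89, again the highest and lowest of all such ratios. In siTbk1-treated cells the SD was 13.1% of the mean for Ins1 and 16.3% for Ins2, larger than for the other 6 genes, which reached at most 3.50% in that group. The SE and intervals draw on the variance of all genes, so they may be too narrow for Ins1 and Ins2. In bulk RNA, fewer cells making a transcript and less transcript per cell cannot be told apart.

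The count of Ins2 followed that of Ins1 closely. It was 1.385% and 1.377% of the Ins1 count under siScramble and 1.380% and 1.319% under siTbk1, and the groups overlapped. The mean log2 ratio differed by −0.034 between treatments (exact permutation test over the 4 samples, two-sided, p = 0.667). With 2 samples against 2 this test cannot give a p under 0.333. Ins1 and Ins2 have near-identical coding sequences, and how reads that match both were assigned is not given in the sources used here. The counts of both genes are whole numbers in every library. Ins2 also lies inside the span listed for Cttn on the same strand, a span from 215255381 to 217638153, and Cttn averaged 14814 counts per library, more than Ins2 in any library. The Ins2 values are therefore less certain than their counting error.

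**Figure D2:**
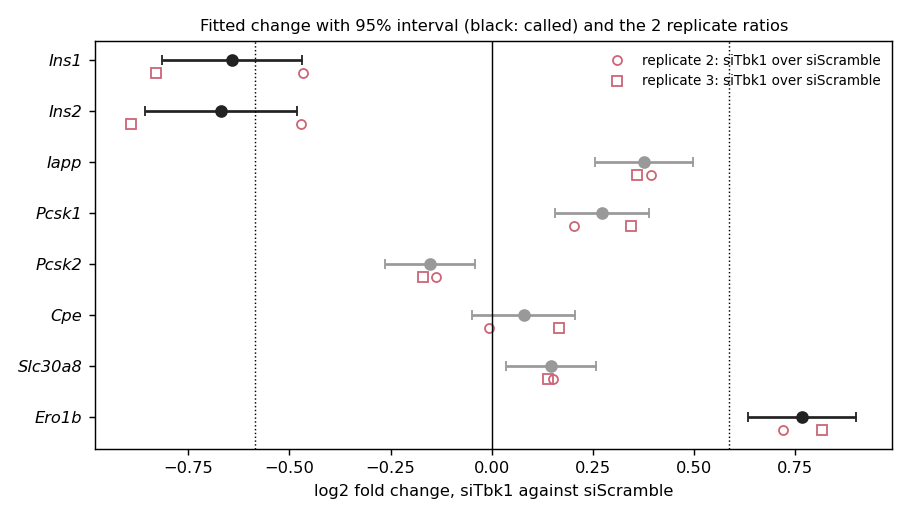
Fitted log2 fold change of each gene with its 95% interval (black where called, grey where not), and below each the ratios of the same-numbered libraries as open circles (replicate 2) and squares (replicate 3), with dotted lines at a fold change of 1.5. The intervals of Ins1 and Ins2 cross the dotted line, and that of Ero1b, from 0.63 to 0.90, lies beyond it. For insulin mRNA the ratio of the libraries numbered 3 is the lower, but the numbers were not taken to pair the samples.

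Iapp, listed on chromosome 4 from 176510696 to 176516084 on the + strand, had a difference of the opposite sign from insulin. Its normalized count was 39738 and 42595 under siScramble and 52171 and 54609 under siTbk1. Both siTbk1 values lay above both control values, and the treatments were further apart than the samples of either. The log2 fold change was 0.38 (SE 0.056, 95% interval 0.25 to 0.50, quasi-likelihood adjusted p = 0.000183), which passes the adjusted p-value and not the fold change limit. Among all tested genes, 85.4% had a lower or equal log2 fold change. The listed span of Iapp overlaps that of Slco1a2 on the other strand, which averaged 42.3 counts per library, and whether the counting used strand is not given in the sources used here.

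The ratio of amylin to insulin mRNA was followed within each library. The Iapp count was 8.88% and 8.91% of the Ins1 count in the control libraries and 16.1% and 20.3% after siTbk1. The ratio rests on counts that are not divided by transcript length, so only its change between libraries is described. On average it was 2.03-fold higher in siTbk1-treated cells, a difference of 1.02 on the log2 scale, and the treatments did not overlap (exact permutation test, two-sided, p = 0.333, the smallest that 4 samples allow). This ratio needs no scaling between libraries. The summed counts of Ins1, Ins2 and Iapp made up 1.16% and 1.25% of all counts under siScramble and 0.870% and 0.746% under siTbk1.

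**Figure D3:**
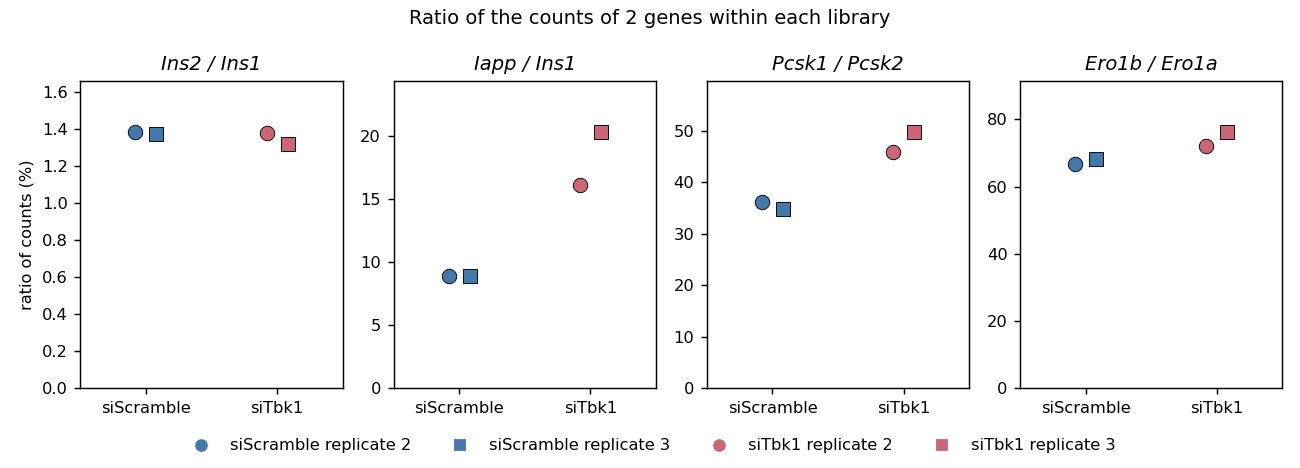
Ratio of the counts of a pair of genes within each library, in percent, with axes from 0. Ins2 to Ins1 stays between 1.319% and 1.385%, Iapp to Ins1 is at 8.88% and 8.91% in control cells and 16.1% and 20.3% after siTbk1, and Pcsk1 to Pcsk2 and Ero1b to Ero1a are higher in both siTbk1 libraries.

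The convertase genes differed in opposite directions. Pcsk1, which encodes the convertase that acts early in proinsulin conversion, is listed on chromosome 2 from 91450162 to 91497092 on the - strand. Its normalized count was 19643 and 18702 under siScramble and 22599 and 23747 under siTbk1. Both siTbk1 libraries were higher, with a log2 fold change of 0.27 (SE 0.053, quasi-likelihood adjusted p = 0.00117), or 1.21-fold. Pcsk2, whose product acts mainly at the other cleavage site of proinsulin and on proglucagon in α-cells, is listed on chromosome 3 from 137618898 to 137925606 on the + strand. It had normalized counts of 54250 and 53665 in control and of 49316 and 47729 in siTbk1-treated cells. Both siTbk1 values were lower, by a small margin, with a log2 fold change of −0.15 (SE 0.051, quasi-likelihood adjusted p = 0.0255). After removal of the span trend (a fit of the change along gene span) its log2 fold change was −0.28, and with the replicate number as a block it no longer passed (quasi-likelihood adjusted p = 0.0844). Of the 4 fits that left out 1 library, it passed only in that without siTbk1 replicate 2. The listed span of Pcsk2 overlaps that of AABR07054045.1 on the other strand, and Pcsk1 lies within the wide spans listed for the short RNA genes RF00002 and RF00003. Neither convertase gene reached the fold change limit. The Pcsk1 count was 36.2% and 34.9% of the Pcsk2 count in control cells and 45.8% and 49.8% after siTbk1. This ratio was 1.34-fold higher in siTbk1-treated cells, without overlap (exact permutation test, two-sided, p = 0.333).

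Cpe is listed on chromosome 16 from 26906716 to 27014814 on the + strand. Its normalized count was 77160 and 69662 under siScramble and 76834 and 78193 under siTbk1. The groups overlapped, and the control samples were further apart from each other than were the means of the treatments. The 95% interval of the log2 fold change ran from −0.050 to 0.21, that is from 0.966 to 1.15 times the control level. The sign of the fitted change depended on the fit, at 0.078 as reported here and −0.032 after removal of a trend along gene span.

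Slc30a8, listed on chromosome 7 from 91832988 to 91867301 on the + strand, had normalized counts of 9560 and 9874 in control cells. In siTbk1-treated cells they were 10614 and 10877, which is slightly higher in both libraries. The log2 fold change was 0.15 (SE 0.051, quasi-likelihood adjusted p = 0.0325). Its counts are not whole numbers. The difference did not pass with the replicate block (quasi-likelihood adjusted p = 0.109), with library size alone (0.126), after removal of the span trend (0.132) or in any of the 4 fits that left out 1 library.

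Ero1b encodes an ER oxidase that is abundant in the endocrine pancreas and passes electrons from protein disulfide isomerase to oxygen during disulfide formation. It is listed on chromosome 17 from 90710555 to 90756049 on the - strand. The normalized count was 1497 and 1453 under siScramble and 2466 and 2556 under siTbk1. The values within a treatment lay close together and the treatments were far apart. The log2 fold change was 0.77 (SE 0.061, 95% interval 0.63 to 0.90, quasi-likelihood adjusted p = 3.46e-06), a rise of 1.70-fold. Of all tested genes, 6.95% had a larger absolute log2 fold change. The paralog Ero1a, expressed in most tissues, rose as well, with normalized counts of 2241 and 2128 in control and of 3427 and 3356 in siTbk1-treated cells (log2 fold change 0.63, SE 0.059). The Ero1b count was 66.8% and 68.3% of the Ero1a count in control cells and 72.0% and 76.2% after siTbk1. Ero1b overlaps the listed span of Gpr137b, a gene of the other strand with 136.5 counts on average.

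Around the 8 genes, the steps of hormone production were followed with 5 lists, and each is described by counts without a test of the list. Of 15 genes for entry into the ER and removal of the signal peptide, 9 were higher and 1 was lower at an adjusted p-value under 0.05 (edgeR's quasi-likelihood test), against 24.4% and 24.8% of all tested genes. Their median log2 fold change was 0.30, and 13 of the 15 lay above 0. Only Spcs2, a subunit of signal peptidase, passed the fold change limit, with normalized counts of 10968 and 10588 under siScramble and of 16102 and 17194 under siTbk1 (log2 fold change 0.63, SE 0.054). Without siTbk1 replicate 3, or with library size alone, it was no longer called.

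Among 20 genes of ER folding and disulfide formation, 11 were higher and 2 lower by the adjusted p-value (edgeR's quasi-likelihood test), against 24.4% and 24.8% of all tested genes. Their median log2 fold change was 0.16, and 16 of the 20 lay above 0. Ero1a was the only gene of the list to pass the fold change limit. P4hb, the protein disulfide isomerase that ERO1 enzymes oxidize, had a log2 fold change of 0.018 and an adjusted p of 0.795 (edgeR's quasi-likelihood test). Prdx4, an ER peroxidase that also supplies oxidizing equivalents, was at 0.28 (quasi-likelihood adjusted p = 0.00246), under the fold change limit. The 2 genes lower by the adjusted p-value, named after their values were seen, were Dnajb9, an ER co-chaperone, at −0.46 and Syvn1, the ubiquitin ligase of ER-associated degradation, at −0.31.

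**Figure D4:**
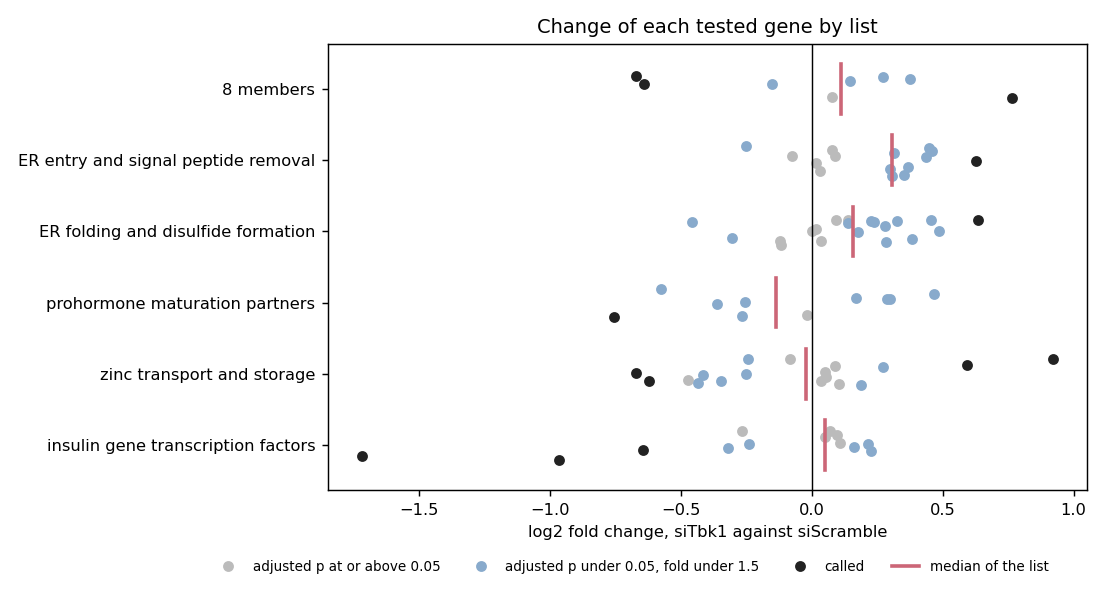
Log2 fold change of every tested gene of the 8 members and of 5 lists of related genes, with called genes in black, genes under 1.5-fold with an adjusted p-value under 0.05 in blue, the others in grey, and a red bar at the median. The genes of ER entry lie mostly to the right of 0, with a median of 0.30, as do those of ER folding, with a median of 0.16. All lists hold genes on both sides.

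Of the 10 tested genes for other prohormone cleavage and end processing enzymes and their partners, 4 were higher and 5 lower by the adjusted p-value (edgeR's quasi-likelihood test), against 24.4% and 24.8% of all tested genes. Scg5, which encodes the chaperone of the Pcsk2 product, had 24104 and 22937 normalized counts in control and 22976 and 23522 in siTbk1-treated cells (log2 fold change −0.017, quasi-likelihood adjusted p = 0.81). Pam, whose product amidates the end of amylin, was higher by 0.29 on the log2 scale (quasi-likelihood adjusted p = 0.000698), and its counts are not whole numbers. Furin, a convertase of the Golgi and the cell surface, was at 4556 and 5119 in control and at 3509 and 2975 in siTbk1-treated cells, a log2 fold change of −0.57 just inside the fold change limit. Pcsk4 was the only gene of this list called, and it is a weakly expressed one, with 89.7 and 121.9 normalized counts in control and 70.6 and 52.5 in siTbk1-treated cells. It was not called by DESeq2, nor without siScramble replicate 3 or siTbk1 replicate 3. Pcsk1n, the gene of a peptide inhibitor of the Pcsk1 product, is not listed under that symbol and so has no values here.

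Of 18 tested genes for zinc transport and storage besides Slc30a8, 4 were higher and 7 lower by the adjusted p-value (edgeR's quasi-likelihood test), against 24.4% and 24.8% of all tested genes. The higher share was near that of all genes, and the median log2 fold change was −0.023. Slc30a1, the zinc exporter of the plasma membrane, was called higher at 0.59, next to the limit, and so was the metallothionein gene Mt1 at 0.92 (SE 0.17). Mt1 is weakly expressed, with 123 and 187 normalized counts in control and 301 and 280 in siTbk1-treated cells. Mt3, another metallothionein gene, and Slc39a13, a zinc transporter of the Golgi, were called lower at −0.67 and −0.62. The 2 higher calls became 1 with library size alone and without siScramble replicate 3 or siTbk1 replicate 2. The 2 lower calls became 1 without siScramble replicate 3 or siTbk1 replicate 3, and 0 after removal of the span trend.

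Of 13 transcription factor genes that act on the insulin promoters or in β-cell identity, 3 were called lower and 0 higher, against 6.18% and 4.81% of all tested genes. By the adjusted p-value alone (edgeR's quasi-likelihood test), 3 were higher and 5 lower, against 24.4% and 24.8%, so that the higher share was near that of all genes. The 3 lower calls became 2 without siScramble replicate 3 or siTbk1 replicate 3. Mafa had 323 and 343 normalized counts in control and 113 and 87.9 in siTbk1-treated cells (log2 fold change −1.72, SE 0.14). Mnx1 and Tcf3, which encode a homeodomain factor and an E box factor, were called lower at −0.97 (SE 0.15) and −0.64 (SE 0.090). Mnx1 is weakly expressed, at a mean of 3.87 CPM. Pdx1 was at −0.24 (quasi-likelihood adjusted p = 0.0167), under the fold change limit. Neurod1 had a log2 fold change of 0.069 and an adjusted p of 0.30 (edgeR's quasi-likelihood test), and its counts are not whole numbers.

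The glucagon mRNA of this line fell together with insulin. Gcg had normalized counts of 59879 and 56617 under siScramble and of 35134 and 37832 under siTbk1. Its siTbk1 values lay below both control values and close to each other, with a log2 fold change of −0.68 (SE 0.057, quasi-likelihood adjusted p = 4.74e-06). Summed over the 5 listed markers of other cell types and taken relative to the unscaled library total, the level was 1344 to 1409 CPM in control and 806 to 865 CPM in siTbk1-treated cells, almost all of it Gcg, and none of the 5 was at 0 in any library. Gcg was lowest in siTbk1 replicate 2, and Ins1 and Ins2 were lowest in siTbk1 replicate 3, a contrast that rests on 1 library per gene. The part of Gcg-expressing cells in the insulin result was not tested.

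Genes of like pattern were sought for Ins1, Iapp and Ero1b among the 9123 genes averaging 10 CPM or more, by the Euclidean distance of log2 CPM centred on the mean of each gene over the 4 samples. For scale, the distance between Ins1 and Ins2 was 0.057, that between Ins1 and Iapp 1.05, and that between Iapp and Pcsk1 0.16. The genes nearest to Ins1 were MAST1 (distance 0.018), Cdt1 (0.022) and Dlg5 (0.024), all nearer to it than Ins2 was. Nearest to Iapp were Trim5 (0.022), Hpca (0.034) and Tlcd1 (0.035). Nearest to Ero1b were Jade3 (0.0054), Ugcg (0.027) and Tmx4 (0.029), of which the last encodes a thioredoxin-related protein of the ER membrane. This list is a description only.

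The decreases of Ins1 and Ins2 sat close to the fold change limit, and the setting decided whether they were called. Without siTbk1 replicate 3 both had a log2 fold change of −0.51 and neither was called. Removal of a trend along gene span brought Ins1 to −0.53 and Ins2 to −0.56, also inside the limit, and these genes have listed spans of 0.564 kb and 1.06 kb against a median of 20.1 kb for all tested genes. Only 425 tested genes span less than Ins1. Both genes were below 0 in all 18 alternatives, although glmTreat and the removal of the fold change limit reuse the fitted values reported here. Both were called in the fits with other scalings, with DESeq2 and with limma-voom. When glmTreat set the null hypothesis at a 1.5-fold change, none of the 8 was called, and Ero1b came closest (adjusted p = 0.0611 from edgeR's glmTreat). In each of the other alternatives Ero1b was called higher.

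**Figure D5:**
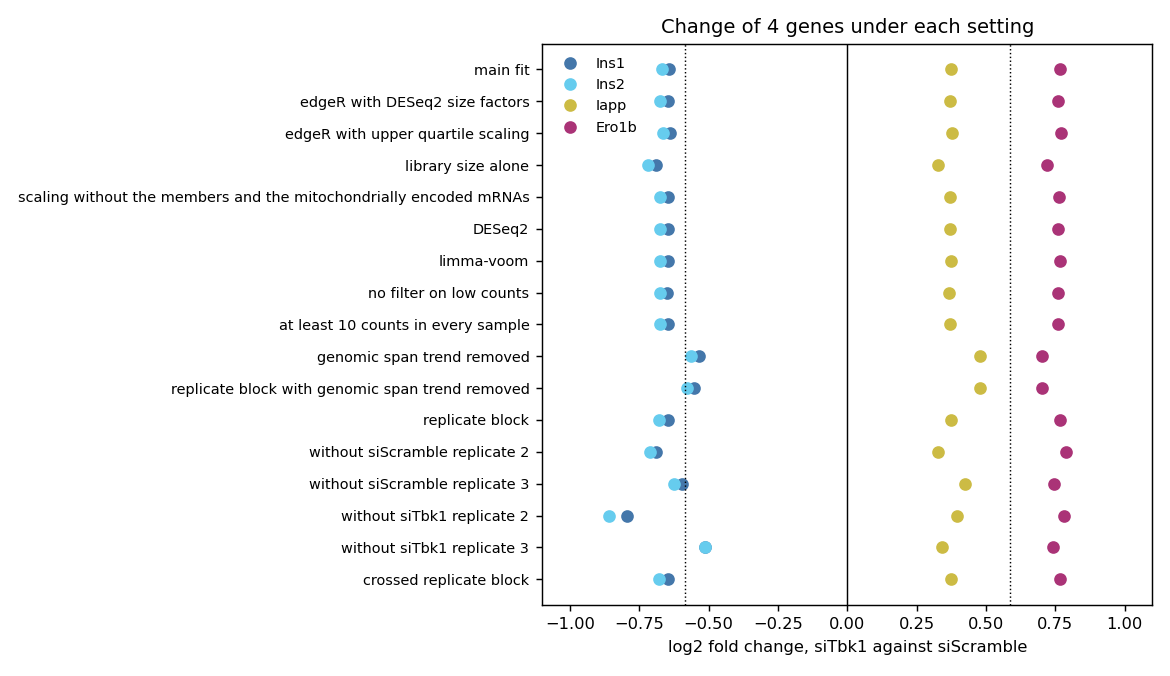
Log2 fold change of Ins1, Ins2, Iapp and Ero1b as reported here and under 16 other settings, with dotted lines at a fold change of 1.5. Ins1 and Ins2 stay below 0 and cross the dotted line without siTbk1 replicate 3 and after removal of the span trend, Ero1b stays beyond the line, and Iapp stays between 0.33 and 0.48.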

How the data were processed

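Gene-level estimated counts of 4 RNA-seq libraries, not scaled between samples, were deposited by the authors in 1 table. The submitters' processing notes name STAR 2.6.1d, Partek and the genome build rn6. The counting settings are not given in the sources used here. After rounding, filterByExpr (edgeR 4.0.16, minimum count 10) kept 13953 genes. TMM factors, between 0.982 and 1.02, scaled the libraries. Groups were compared with glmQLFit and glmQLFTest of edgeR, with treatment as the only factor and Benjamini-Hochberg adjustment over all tested genes. Calls required an adjusted p under 0.05 together with a change of 1.5-fold or more, the limits stated in the study. Standard errors (SE) were the absolute log2 fold change divided by the square root of F. The test draws the variance of each gene towards a trend over all genes, with a weight of 10.1 prior degrees of freedom. At these depths 3 counts are 0.0625 to 0.0795 CPM, and with 2 samples per group the SE was larger for the weakly expressed genes named here. The members, lists and tests were chosen with earlier results of these data known. Beyond the members and Tbk1, genes were named by a rule. It took up to 3 called genes per list and direction and 10 genes with a direct role beside a member. Of these 10, Pcsk1n is not listed. The rule also took 3 genes of like pattern each for Ins1, Iapp and Ero1b. Spans are stop minus start as listed, and their trend was removed as a loess offset (span 0.5). R 4.3.3, limma 3.58.1, DESeq2 1.42.0, Python 3.11.15, Biopython 1.88 and matplotlib 3.10.9 were used, and fits were tested on simulated data. The other experiments of the study were not analysed here. The values of 1 listed marker gene are not reported here.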

Additional observations from a re-analysis of the deposited data

How the results depend on the processing

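Across 18 alternatives, Ins1 and Ins2 were both called lower in 14 and Ero1b was called higher in 17. Without the fold change limit 4 genes were higher, with Iapp (0.38), Pcsk1 (0.27) and Slc30a8 (0.15) added, and Pcsk2 (−0.15) was added to the lower ones. With glmTreat 0 were called in either direction, at fitted values of −0.64 (Ins1), −0.67 (Ins2) and 0.77 (Ero1b). With the span trend removed, 0 were called lower (Ins1 −0.53, Ins2 −0.56), and Cpe turned to −0.032. With the replicate block and the span trend together, 0 were called lower (Ins1 −0.55, Ins2 −0.58), and Cpe was at −0.030. The cause of these shifts was not tested. Leaving out 1 library gave between 0 and 2 genes called lower, log2 fold changes of −0.79 to −0.51 for Ins1 and −0.86 to −0.51 for Ins2, and the count of 0 came without siTbk1 replicate 3. The single sample left in a group is then assumed to vary like the other group. With the replicate block alone, the log2 fold changes were −0.65 (Ins1), −0.68 (Ins2), 0.38 (Iapp) and 0.77 (Ero1b), with the same 3 genes called. As a check of pairing, deviations from the group mean were correlated between samples of equal number (Pearson 0.0041 and Spearman −0.20 over 13953 genes). With 2 pairs and no label that ties them, the numbers were not taken to pair the samples. With the numbers crossed between treatments as the block, an alternative chosen after seeing the data, 2 of the 8 genes were called lower and 1 higher, and 872 and 648 of all genes. Medians of the lists moved by more than the spread between replicates with library size alone, to 0.26 (ER entry), −0.18 (prohormone partners), −0.070 (zinc) and 0.0034 (transcription factors). With the span trend removed they were −0.17, −0.11 and −0.072 for the last 3 lists, and with the block in addition −0.17, −0.11 and −0.072. Without 1 library the median was −0.14 to −0.11 for the prohormone partners and −0.082 to −0.019 for the zinc list. Library size alone left 34.1% of all calls higher, against 43.8% with TMM factors. Over all genes, 671 were called higher and 862 lower, 163 and 101 with glmTreat, and 3405 and 3459 with no fold change limit.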
